A study of Homo sapiens with 10 samples.

Results

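The transcripts encoded by the mitochondrial genome of U2OS cells were followed after knockdown of DDX41. The genes were chosen by their chromosome, as the 37 genes that GENCODE places on chromosome M, of 63299 genes in the count tables. No count entered this rule, but the family was taken up with earlier results of these data known. The 37 genes are 13 mRNAs, which encode subunits of respiratory complexes I, III, IV and V, 2 rRNAs and 22 tRNAs. Of these, 27 had at least 1 count in any library, and 17 passed edgeR's expression filter: the 13 mRNAs, the 2 rRNAs and the tRNAs MT-TI and MT-TT.

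U2OS is a human line derived from an osteosarcoma, and DDX41 is a DEAD-box RNA helicase, whose loss was studied for its effect on RNA-DNA hybrids at promoters. Polyadenylated RNA was sequenced with a stranded kit in single reads of 84 bases, and the authors counted reads per gene. In the siCtrl group cells received control siRNA, and in the siDDX41 group siRNA against DDX41, in both for 48 h and in the same unmodified line, with 5 libraries per group. The labels describe the siRNA as a pool, so that the effect of any 1 siRNA cannot be told apart from the rest, and do not say whether the 5 libraries of a group came from separate cultures, so that p-values measure the spread between these libraries, which may be technical. Total counts per library lay between 23393764 and 24598860 in siCtrl (median 23863834) and between 21807041 and 24896398 in siDDX41 (median 23714261). DDX41 itself stood at 49.1, 49.4, 47.3, 47.2 and 50.5 CPM (counts scaled to a common library size with the TMM factors of edgeR) in siCtrl replicates 1 to 5 and at 11.5, 13.7, 12.4, 11.2 and 12.3 CPM in siDDX41 replicates 1 to 5. Every knockdown library was below every control library, with a log2 fold change of -1.99 ± 0.05 (SE) and adjusted p = 4.47e-24 by the quasi-likelihood F test of edgeR, adjusted after Benjamini and Hochberg over the 16143 genes that passed its expression filter.

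Among 6 genes listed as markers of osteosarcoma lines, of which VIM marks mesenchymal cells in general, SPARC (2807 CPM on average in siCtrl), VIM (2465 CPM) and COL1A1 (1875 CPM) were abundant, RUNX2 (32.4 CPM) and ALPL (5.01 CPM) were low, and COL1A2 was near 0 (0.448 CPM). Of the 5 that were tested, SPARC rose (log2 fold change 0.18, adjusted p = 1.42e-07 from edgeR), while RUNX2 (-0.40, adjusted p = 2.24e-09), ALPL (-0.70, adjusted p = 5.51e-06) and VIM (-0.09, adjusted p = 0.00174) fell, and COL1A1 was not called (-0.09, adjusted p = 0.0551). The sum of the 6, which SPARC, VIM and COL1A1 dominate, ranged from 7036 to 7317 CPM in siCtrl and from 7094 to 7494 CPM in siDDX41. Of 6 markers of other cell types, the epithelial CDH1 (0.874 CPM), the leukocyte gene PTPRC (0.333 CPM), the endothelial PECAM1 (0.303 CPM) and the liver gene ALB (0.0496 CPM) were near 0, and EPCAM stood at 7.99 CPM. CD34, the most abundant of them, fell (log2 fold change -2.71 ± 0.08, SE, adjusted p = 5.27e-20 from edgeR), from 30.4 CPM to 4.66 CPM, and the sum of the 6 ranged from 36.8 to 41.9 CPM in siCtrl and from 13.6 to 15.982 CPM in siDDX41. Among the control libraries siCtrl replicate 2 stood apart in the mitochondrial counts: it was the lowest control library for each of the 17 chromosome M genes that were tested, while siCtrl replicate 4 was the highest for 15 of them and siDDX41 replicate 1 the highest knockdown library for 14. Values without siCtrl replicate 2 are therefore given beside the results of the genes tested, a choice made after seeing the data.

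Mitochondrial DNA is a small circle present in many copies per cell. Both of its strands are transcribed by the polymerase POLRMT into long precursors that span many genes, and tRNAs lie between most of the mRNAs and rRNAs, so that cutting out the tRNAs releases the RNAs beside them. RNase P, with its subunit TRMT10C, cuts at the start of a tRNA and ELAC2 at its end. The polymerase MTPAP then adds a poly(A) tail to most of the mRNAs, which completes the stop codon of those whose gene ends on T or TA, and short adenine tails are found on the rRNAs, while the light-strand mRNA MT-ND6 is known to lack a poly(A) tail. Heavy-strand genes are here those read on the + strand of the reference, and light-strand genes those on the - strand: 28 genes, with both rRNAs and 12 mRNAs, against 9 genes, MT-ND6 and 8 tRNAs.

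The 3′ ends of the mRNA genes are shown because these libraries were made from polyadenylated RNA and because the tail is part of the reading frame of several members. In build hg38 (GRCh38), 6 of the 13 mRNA genes end within a stop codon, 5 on T and 1 on TA, and 7 end on a complete codon, of which TAA occurs 3 times, TAG 2 times, and AGA and AGG, which encode arginine in the nuclear code, 1 time each. The last 18 bases of the 6 genes with an incomplete stop, followed by the genes that end on AGA and AGG, are given 5′ to 3′ with the stop or its remnant in capitals:
MT-ND1, chrM:4245-4262, + strand: cattccccctcaaaccTA
MT-ND2, chrM:5494-5511, + strand: ttatactaataatcttaT
MT-CO3, chrM:9973-9990, + strand: tctattgatgagggtctT
MT-ND3, chrM:10387-10404, + strand: gattagactgaaccgaaT
MT-ND4, chrM:12120-12137, + strand: ttaccgggttttcctctT
MT-CYB, chrM:15870-15887, + strand: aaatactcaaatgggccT
MT-CO1, chrM:7428-7445, + strand: gtatacataaaatctAGA
MT-ND6, chrM:14149-14166, - strand: attgctcgggggaatAGG

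In 3 places mRNA genes share bases on the same strand, so that a read that reaches the shared stretch belongs to both. MT-ATP8 and MT-ATP6 share 46 bases, MT-ND4L and MT-ND4 share 7, and MT-ATP6 and MT-CO3 share 1. The first 2 pairs are each carried on 1 mRNA of 2 reading frames. Counts of these 5 genes are therefore uncertain, since another counting could divide them differently. The shared bases of the first 2 pairs are shown in capitals with 6 bases on each side:
MT-ATP8/MT-ATP6, chrM:8521-8578, + strand: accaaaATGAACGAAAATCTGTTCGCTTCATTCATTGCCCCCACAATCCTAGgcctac
MT-ND4L/MT-ND4, chrM:10754-10772, + strand: actccaATGCTAAaactaa
The 2 tRNAs that passed the filter are shown with the 18 bases after them in capitals, because a tRNA gene of 69 or 66 bases is shorter than a read of 84 bases, and a read that starts inside it runs into those bases:
MT-TI, chrM:4263-4349, + strand: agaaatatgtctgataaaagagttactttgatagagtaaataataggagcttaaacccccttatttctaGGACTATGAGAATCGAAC
MT-TT, chrM:15888-15971, + strand: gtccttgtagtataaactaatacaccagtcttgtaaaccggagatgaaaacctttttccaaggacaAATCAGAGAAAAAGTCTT

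Counts on chromosome M took a larger share of the libraries after DDX41 knockdown. In siCtrl replicates 1 to 5 they made up 1.5004, 1.13, 1.49, 1.69 and 1.43% of all counts, and in siDDX41 replicates 1 to 5 2.29, 2.07, 2.07, 2.00 and 2.00%. The lowest share was that of siCtrl replicate 2 and the highest that of siDDX41 replicate 1. All knockdown libraries lay above all control libraries, with means of 1.45 ± 0.199% (SD, n = 5) and 2.08 ± 0.123% (SD, n = 5). Without siCtrl replicate 2 the control mean was 1.53 ± 0.111% (SD, n = 4), and the log2 ratio of the means went from 0.53 to 0.45. These shares are relative: more mitochondrial RNA per cell and less of the other RNA per cell cannot be told apart. The share is given as a description with no test, since it sums over members chosen with results known.

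**Figure D1:**
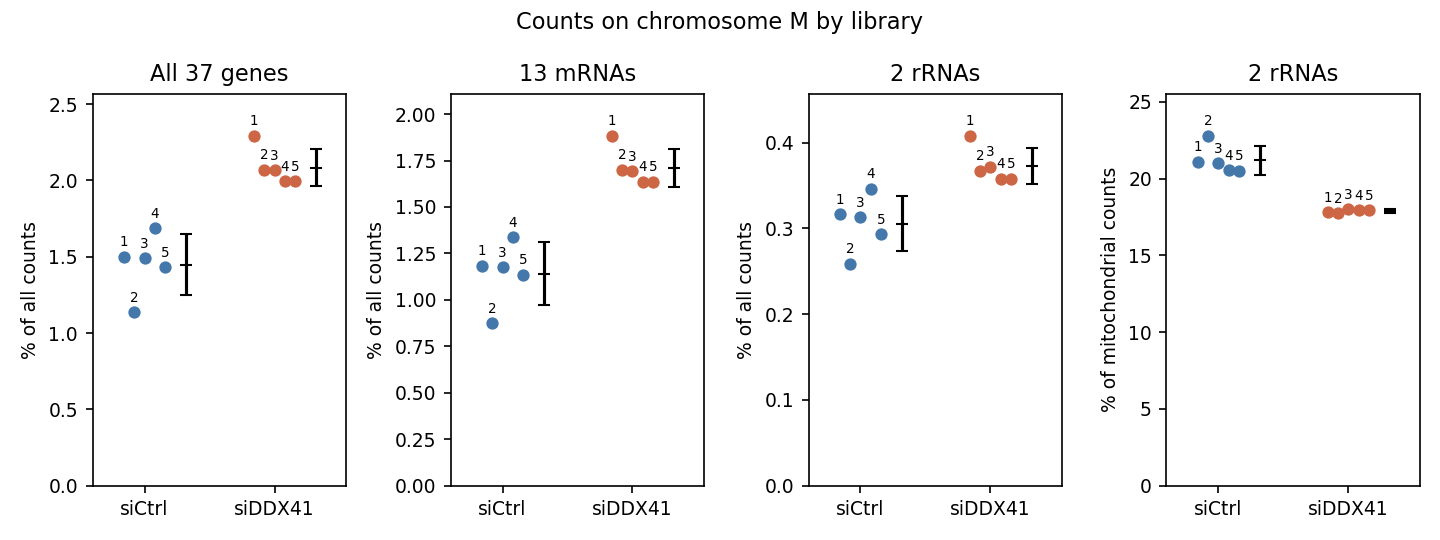
Share of counts on chromosome M in each library, in % of all counts for all 37 genes, the 13 mRNAs and the 2 rRNAs, and in % of mitochondrial counts for the 2 rRNAs. Points are libraries with their replicate number, and the bar beside them is the group mean ± SD (n = 5). Knockdown libraries lie above control libraries in the first 3 panels and below them in the last, where siCtrl replicate 2 is the highest at 22.8%.

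The difference was larger for the mRNAs than for the rRNAs. The 13 mRNAs went from 1.14 ± 0.168% of all counts to 1.71 ± 0.102% (SD, n = 5 each), a log2 ratio of 0.58, or 0.50 without siCtrl replicate 2. The 2 rRNAs went from 0.306 ± 0.0322% to 0.373 ± 0.0208%, a log2 ratio of 0.29, or 0.23 without that library. Each control library held 3.38 to 3.87 mRNA counts per rRNA count, and each knockdown library 4.55 to 4.63, so that the groups did not overlap.

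Of the 17 members that passed the filter, 15 rose at an adjusted p under 0.01, beside 30.3% of all 16143 tested genes (4890 genes). None fell, beside 32.1% (5178 genes), and none of the 17 was lower at an unadjusted p under 0.05 in edgeR or at an adjusted p under 0.01 in DESeq2. In 16 members, all but MT-ND6, every knockdown library was above every control library, which held for 26.7% of all tested genes. The median log2 fold change of the 17 members was 0.54, against 0.00 over all tested genes. MT-ND5 and MT-ND6 did not pass the threshold.

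Several of these calls stood close to the threshold. When 1 library was left out, MT-RNR2 lost its call for 8 of the 10 libraries, all but siCtrl replicates 2 and 4, with adjusted p-values of edgeR from 0.0120 to 0.0227. The same 8 libraries decided MT-ND4 (adjusted p of edgeR from 0.0111 to 0.0203), the same 8 except siDDX41 replicate 3 decided MT-ATP6 (from 0.0119 to 0.0155), and siCtrl replicates 1 and 5 and siDDX41 replicates 1 and 2 decided MT-ATP8 (from 0.0104 to 0.0128). Without siCtrl replicate 2 the spread was smaller and each of the 17 log2 fold changes was lower. This follows from leaving out the library that was the lowest control for each of them. In that fit 16 members passed the threshold, MT-ND5 included (adjusted p = 0.000178 from edgeR), beside 29.6% of all tested genes that rose. MT-ND6 did not pass with or without that library.

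**Figure D2:**
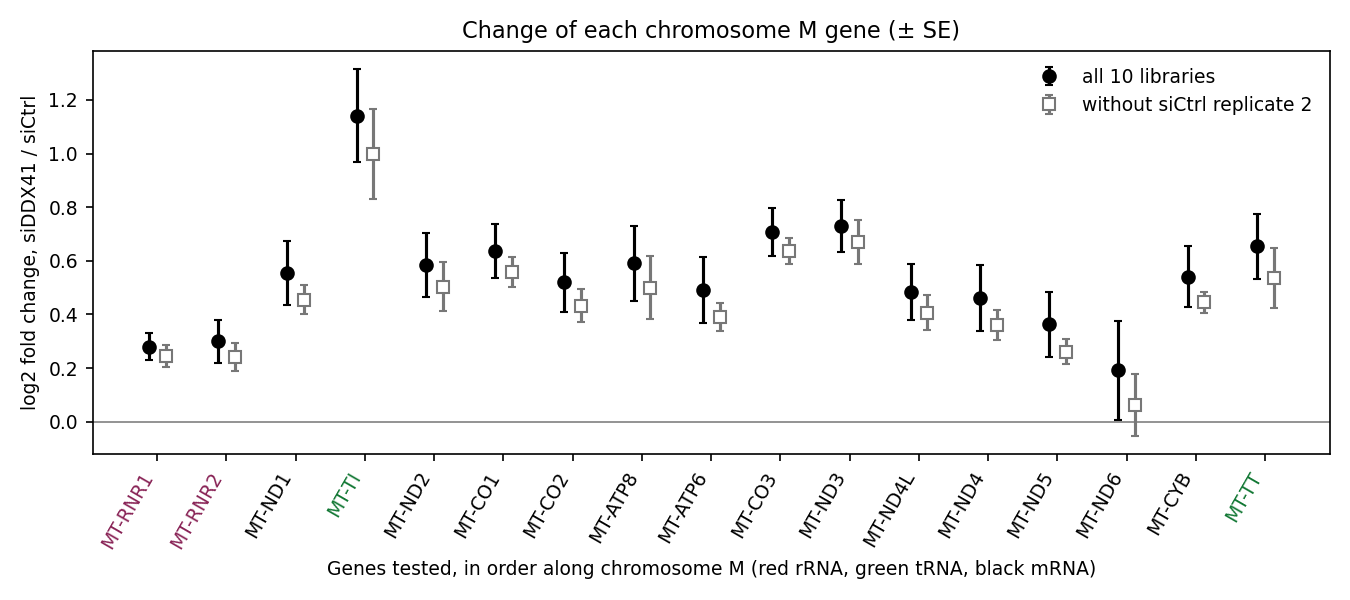
Log2 fold change of siDDX41 against siCtrl for the 17 genes tested, in their order along chromosome M, with SE bars from edgeR. Filled circles use all 10 libraries and open squares leave out siCtrl replicate 2. MT-TI is highest at 1.14 and MT-ND6 lowest at 0.19, and every open square lies below its filled circle.

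MT-RNR1 and MT-RNR2, the rRNAs of the small and large subunits of the mitochondrial ribosome, rose the least among the called genes. MT-RNR1 stood at 386, 341, 373, 425 and 354 CPM in siCtrl replicates 1 to 5 and at 468, 436, 443, 459 and 474 CPM in siDDX41 replicates 1 to 5. The groups came close, at 425 and 436 CPM, without overlapping, and the log2 fold change was 0.28 ± 0.05 (SE, adjusted p = 0.000248 from edgeR), or 0.25 without siCtrl replicate 2. For MT-RNR2 the control libraries held 2796, 2232, 2731, 3041 and 2563 CPM and the knockdown libraries 3628, 3233, 3292, 3158 and 3142 CPM. Here too the highest control library was just below the lowest knockdown library, with a log2 fold change of 0.30 ± 0.08 (SE, adjusted p = 0.00875 from edgeR), or 0.24 without siCtrl replicate 2. There were 6.55 to 7.33 counts of MT-RNR2 per count of MT-RNR1 in siCtrl and 6.63 to 7.75 in siDDX41, with overlap. MT-RNR2 also lost its call with library sizes left without TMM factors (adjusted p = 0.0102 from edgeR) and with no filter on low counts (adjusted p = 0.0186 from edgeR). Short tails are found on rRNA, and how much of it passed poly(A) selection was not measured here.

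Complex IV, cytochrome c oxidase, takes electrons from cytochrome c and reduces oxygen, and its core subunits are MT-CO1, MT-CO2 and MT-CO3. These 3 mRNAs held 49.0% of the mitochondrial counts on average in siCtrl, and all rose, beside 30.3% of all tested genes. MT-CO3 stood at 2267, 1783, 2244, 2579 and 2210.0 CPM in siCtrl replicates 1 to 5 and at 3883, 3495, 3742, 3519.8 and 3441 CPM in siDDX41 replicates 1 to 5. Its groups were far apart, with a log2 fold change of 0.71 ± 0.09 (SE, adjusted p = 8.12e-05 from edgeR), or 0.64 without siCtrl replicate 2. MT-CO1, the catalytic subunit, stood at 3090.2, 2294, 2985, 3495 and 2948 CPM in siCtrl and at 5039.6, 4514, 4635, 4442 and 4404 CPM in siDDX41, in the same order of replicates. Again no libraries overlapped, and the log2 fold change was 0.64 ± 0.10 (SE, adjusted p = 0.000402 from edgeR), or 0.56 without siCtrl replicate 2. MT-CO2, which holds the copper site that receives the electrons, stood at 1974, 1430.3, 1953, 2252 and 1878 CPM in siCtrl and at 3030.0, 2688, 2665, 2608 and 2606 CPM in siDDX41. All knockdown libraries were above all controls, with siDDX41 replicate 1 highest, and the gene rose by a log2 fold change of 0.52 ± 0.11 (SE, adjusted p = 0.00247 from edgeR), or 0.43 without siCtrl replicate 2.

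Complex I, NADH dehydrogenase, has 7 mitochondrially encoded subunits, all in its membrane arm. Of these 7 mRNAs 5 rose, beside 30.3% of all tested genes. The other 2, MT-ND5 and MT-ND6, did not pass the threshold. MT-ND3 changed most, from 462, 361, 441, 504 and 421 CPM in siCtrl replicates 1 to 5 to 842, 703, 734, 659 and 695 CPM in siDDX41 replicates 1 to 5. The knockdown libraries were all well above the controls, and the log2 fold change was 0.73 ± 0.10 (SE, adjusted p = 0.000118 from edgeR), or 0.67 without siCtrl replicate 2. MT-ND2 stood at 972, 684, 895, 1047 and 827 CPM in siCtrl and at 1547, 1308, 1268, 1223 and 1287 CPM in siDDX41. No libraries overlapped, siDDX41 replicate 1 was far above the other knockdown libraries, and the log2 fold change was 0.58 ± 0.12 (SE, adjusted p = 0.00178 from edgeR), or 0.50 without siCtrl replicate 2. MT-ND1 stood at 287, 198, 292, 329 and 271 CPM in siCtrl and at 441, 406, 388, 388 and 399 CPM in siDDX41. Its knockdown libraries were likewise all above its controls (log2 fold change 0.55 ± 0.12 SE, adjusted p = 0.00278 from edgeR, or 0.46 without siCtrl replicate 2).

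The complex I genes MT-ND4L and MT-ND4 share an mRNA. MT-ND4L stood at 141, 109, 144, 160.1 and 144 CPM in siCtrl replicates 1 to 5 and at 222, 199, 195, 179 and 180.5 CPM in siDDX41 replicates 1 to 5. MT-ND4 stood at 1039, 714, 1051, 1181 and 1012 CPM in siCtrl and at 1493, 1426, 1261, 1338 and 1359 CPM in siDDX41. In both genes siCtrl replicate 2 was far below the other controls and no libraries overlapped. The log2 fold changes were 0.48 ± 0.10 for MT-ND4L (SE, adjusted p = 0.00243 from edgeR) and 0.46 ± 0.12 for MT-ND4 (adjusted p = 0.00847), or 0.41 and 0.36 without siCtrl replicate 2. MT-ND4 lost its call with no filter on low counts (adjusted p = 0.0176 from edgeR).

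MT-ND5 encodes 1 of the subunits of complex I that resemble proton antiporters. Its mRNA stood at 280.0, 186, 276, 304 and 259 CPM in siCtrl replicates 1 to 5 and at 353, 357, 307, 333 and 328 CPM in siDDX41 replicates 1 to 5. The lowest knockdown library, siDDX41 replicate 3, was only just above the highest control library, siCtrl replicate 4. The log2 fold change was 0.36 ± 0.12 (SE, adjusted p = 0.0253 from edgeR), past the threshold neither here nor in 9 of the 10 fits that left out 1 library, but past it with the Wald test of DESeq2 (log2 fold change 0.37, adjusted p = 0.00381), with edgeR without its robust estimate of the spread (adjusted p = 0.000171, chosen after seeing the data) and without siCtrl replicate 2 (log2 fold change 0.26, adjusted p = 0.000178 from edgeR). Over these fits and those of the other alternatives the highest adjusted p was 0.0689.

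Complex III holds a single mitochondrially encoded subunit, MT-CYB, the cytochrome b that passes electrons from ubiquinol. MT-CYB stood at 580.4, 399.7, 573, 644 and 554 CPM in siCtrl replicates 1 to 5 and at 866, 784, 788, 785 and 781 CPM in siDDX41 replicates 1 to 5. Apart from siDDX41 replicate 1 the knockdown libraries were within 781 to 788 CPM, and no control library reached them. The log2 fold change was 0.54 ± 0.11 (SE, adjusted p = 0.00227 from edgeR), or 0.45 without siCtrl replicate 2.

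MT-ATP6 and MT-ATP8 encode membrane subunits of complex V, the ATP synthase, and both rose, beside 30.3% of all tested genes. MT-ATP6 stood at 724, 487, 718, 804 and 688 CPM in siCtrl replicates 1 to 5 and at 1052, 989, 883, 945 and 939.6 CPM in siDDX41 replicates 1 to 5. Its lowest knockdown library, siDDX41 replicate 3, was still above its highest control library, siCtrl replicate 4 (log2 fold change 0.49 ± 0.12 SE, adjusted p = 0.00623 from edgeR, or 0.39 without siCtrl replicate 2). MT-ATP8 stood at 64.6, 54.1, 80.7, 89.7 and 74.8 CPM in siCtrl and at 128, 115, 107, 100.5 and 97.0 CPM in siDDX41. Here siDDX41 replicate 5 was the lowest knockdown library and above all controls (log2 fold change 0.59 ± 0.14 SE, adjusted p = 0.00435 from edgeR, or 0.50 without siCtrl replicate 2). Both genes are read from the mRNA whose shared bases are shown above. With no filter on low counts MT-ATP6 lost its call (adjusted p = 0.0132 from edgeR). The count of MT-ATP6 per count of MT-ATP8 ranged from 8.90 to 11.2 in siCtrl and from 8.21 to 9.68 in siDDX41, with overlap. By position, 79 read starts of 84 bases overlap MT-ATP8 and no other gene of its strand, against 551 for MT-ATP6.

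The 22 tRNA genes, which supply the adaptors for mitochondrial translation, held 1389 of the 4168958 mitochondrial counts over the 10 libraries. Counts were found in 12 of the tRNA genes, and the other 10 stood at 0 in every library, so their change cannot be given. A read of 84 bases aligned in full cannot lie inside a gene of 59 to 75 bases, and if reads that reach 2 genes were dropped, it would count for a tRNA only where it reaches no other gene of the same strand. For 7 of the 10 genes at 0 no read start met this condition, and the other 3, MT-TN, MT-TC and MT-TK, had 13 to 22 such starts, of which 61.5 to 100% give a read with an identical copy on a nuclear chromosome. The 12 genes with counts had 55 to 155 such starts. With genes of both strands considered, 10 of these 12 had no free start, and these 10 held 1297 of the 1389 counts. Whether strand was used in counting was not tested. How the authors counted reads that reach 2 genes or are clipped, and on which strand, is not given in the sources used here.

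**Figure D3:**
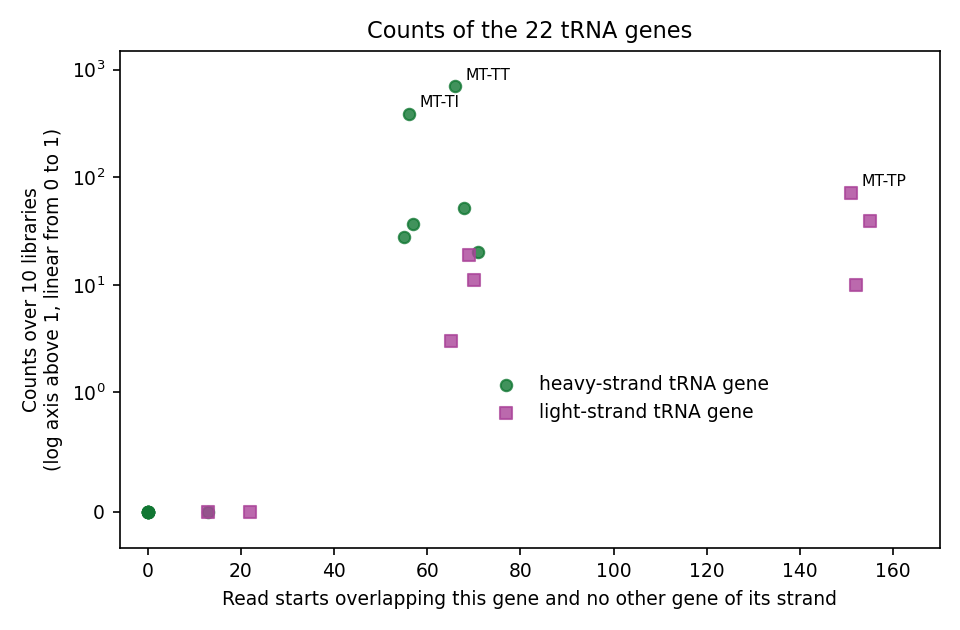
Counts of each of the 22 tRNA genes summed over the 10 libraries (log axis above 1, linear between 0 and 1) against the number of 84-base read starts that overlap the gene and no other gene of its strand. Circles are heavy-strand and squares light-strand genes, and 7 genes lie on top of each other at 0 starts and 0 counts. The genes at 0 counts have at most 22 such starts and those with counts at least 55.

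MT-TI, the tRNA for isoleucine between MT-ND1 and MT-ND2, and MT-TT, the tRNA for threonine after MT-CYB, were the only tRNAs to pass the filter, with 390 and 708 counts in all. MT-TI stood at 1.06, 0.612, 0.967, 1.11 and 1.42 CPM in siCtrl replicates 1 to 5 and at 2.85, 1.95, 2.58, 2.09 and 1.96 CPM in siDDX41 replicates 1 to 5. The groups did not overlap, and the log2 fold change of 1.14 ± 0.17 (SE, adjusted p = 1.08e-06 from edgeR) was the largest of the 17 members, 1.00 without siCtrl replicate 2. MT-TT stood at 2.53, 1.5510, 2.52, 2.57 and 2.50 CPM in siCtrl and at 3.63, 3.43, 3.87, 4.00 and 3.41 CPM in siDDX41, in the same order. Its control libraries other than replicate 2 lay between 2.50 and 2.57 CPM, and the log2 fold change was 0.65 ± 0.12 (SE, adjusted p = 2.23e-05 from edgeR), or 0.54 without siCtrl replicate 2. A read of full length that overlaps MT-TI or MT-TT and no other gene of its strand runs past the 3′ end of the tRNA into the bases shown in capitals above. The 10 other tRNA genes with counts had 3 to 72 counts in all and were not tested.

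Nearly all mitochondrial counts came from the heavy strand, with 4166696 counts in its 28 genes against 2262 in the 9 of the light strand. These are counts of polyadenylated RNA, and MT-ND6 is known to lack a poly(A) tail, so they do not compare the RNA of the strands in the cell. Of the 16 heavy-strand genes tested 15 rose, beside 30.3% of all tested genes. The median log2 fold change of the 16 was 0.55. MT-ND6, the light-strand mRNA and a subunit of complex I, stood at 6.98, 5.31, 11.0, 10.1 and 8.41 CPM in siCtrl replicates 1 to 5 and at 10.6, 10.3, 9.07, 7.92 and 9.71 CPM in siDDX41 replicates 1 to 5. The groups overlapped, and siCtrl replicates 3 and 4 were higher than most knockdown libraries. Its log2 fold change was 0.19 ± 0.18 (SE, adjusted p = 0.373 from edgeR) and ranged from 0.06 without siCtrl replicate 2 to 0.31 without siCtrl replicate 3, with adjusted p-values up to 0.639 over the alternatives. A change of MT-ND6 was thus not resolved from the spread between libraries, and its difference from the heavy-strand mRNAs was not tested.

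MT-ND6 made up 0.0588, 0.0610, 0.0945, 0.0750 and 0.0745% of the mRNA counts in siCtrl replicates 1 to 5 and 0.0562, 0.0608, 0.0534, 0.0479 and 0.0587% in siDDX41 replicates 1 to 5. The means were 0.0727 ± 0.0143% and 0.0554 ± 0.00502% (SD, n = 5 each), and the groups overlapped through siCtrl replicate 1 alone, with siCtrl replicate 2 just above the highest knockdown library. With the tRNAs of both strands the light-strand share was 0.0778 ± 0.0142% in siCtrl and 0.0596 ± 0.00478% in siDDX41, again with overlap. The 14 heavy-strand tRNA genes together held 64 to 104 counts in a control library and 139 to 181 in a knockdown library, without overlap. Most of these were counts of MT-TI and MT-TT, and the counts of the other 12 genes overlapped between the groups. The 8 light-strand tRNA genes held 10 to 20 counts in a control library and 14 to 20 in a knockdown library, with overlap, and a change cannot be resolved from so few counts.

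Within the mitochondrial counts, the share of rRNA was lower and that of mRNA higher after knockdown. The 2 rRNAs made up 21.1, 22.8, 21.0, 20.5 and 20.5% of them in siCtrl replicates 1 to 5 and 17.8, 17.8, 18.019, 17.9 and 17.9% in siDDX41 replicates 1 to 5. Every knockdown library was lower than every control library, also without siCtrl replicate 2, which was the highest. The sum of the 3 complex IV mRNAs went from 49.0 ± 0.411% to 52.3 ± 0.630% (SD, n = 5 each), with no overlap, through MT-CO1 and MT-CO3, while MT-CO2 went from 13.1 ± 0.257% to 12.981 ± 0.117%, with overlap. Complex I went from 20.8 ± 0.459% to 20.9 ± 0.561%, complex III from 3.80 ± 0.145% to 3.83 ± 0.0568% and complex V from 5.22 ± 0.246% to 5.12 ± 0.207%, and in each of these 3 the groups overlapped. The tRNAs took 0.0304 ± 0.00283% and 0.0352 ± 0.00270%, also with overlap. With the 13 mRNAs as the denominator complex IV took 61.6 to 63.3% in siCtrl and 62.9 to 65.022% in siDDX41, with overlap, and its log2 ratio went from 0.09 to 0.03. Complexes I and III then changed sign, from 0.01 and 0.01 to -0.05 and -0.05, and complex V went from -0.03 to -0.09, each with overlap. The overlap in these shares of mRNA counts came from siCtrl replicate 2 alone: without it the log2 ratios were -0.06 for complex I, -0.07 for complex III, 0.04 for complex IV and -0.11 for complex V, none with overlap. Of all mitochondrial counts, complexes I, III and V had log2 ratios of -0.01, -0.01 and -0.06 without that library, each with overlap. Without siDDX41 replicate 3 the log2 ratio of complex V was -0.005. These shares add up to 100%, so that a rise of 1 class lowers the others, and they are given with no test.

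By gene, the share of mitochondrial counts separated the groups for 5 of the 15 rRNAs and mRNAs. MT-CO1 took 20.2 to 20.7% of the mitochondrial counts in siCtrl and 21.8 to 22.4% in siDDX41. MT-CO3 took 15.037 to 15.8% and 16.9 to 18.1%, and MT-ND3 2.96 to 3.20% and 3.27 to 3.66%. These 3 mRNAs gained, while MT-RNR1 (2.49 to 3.02% and 2.03 to 2.35%) and MT-RNR2 (18.025 to 19.8% and 15.6 to 15.9%) lost. MT-ND5 took 1.80 ± 0.0895% in siCtrl and 1.6047 ± 0.0980% in siDDX41 and overlapped through siCtrl replicate 2 alone. There were 8.09 to 9.59 counts of MT-CO3 per count of MT-ND5 in siCtrl and 9.79 to 12.2 in siDDX41. The direction of small shifts depended on the denominator and on siCtrl replicate 2. As shares of the mRNA counts alone, MT-ND1, MT-ND2, MT-ATP8 and MT-CYB changed sign, each with a log2 ratio between -0.05 and 0.06 under either denominator, while MT-CO1, MT-CO3 and MT-ND3 still had log2 ratios of 0.04, 0.11 and 0.13, the last with overlap. Without siCtrl replicate 2 and with all mitochondrial counts as the denominator, MT-ND1 and MT-CYB changed sign as well, to log2 ratios of -0.0022 and -0.0132. Among mRNA counts the groups also separated for MT-CO2, MT-ND4L and MT-ND5, with log2 ratios of -0.07, -0.11 and -0.22, of which MT-ND5 went from 2.28 ± 0.0933% to 1.96 ± 0.118% (SD, n = 5 each). Without siCtrl replicate 2 they separated for MT-ND3, MT-ATP6, MT-ND4 and MT-CYB too.

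**Figure D4:**
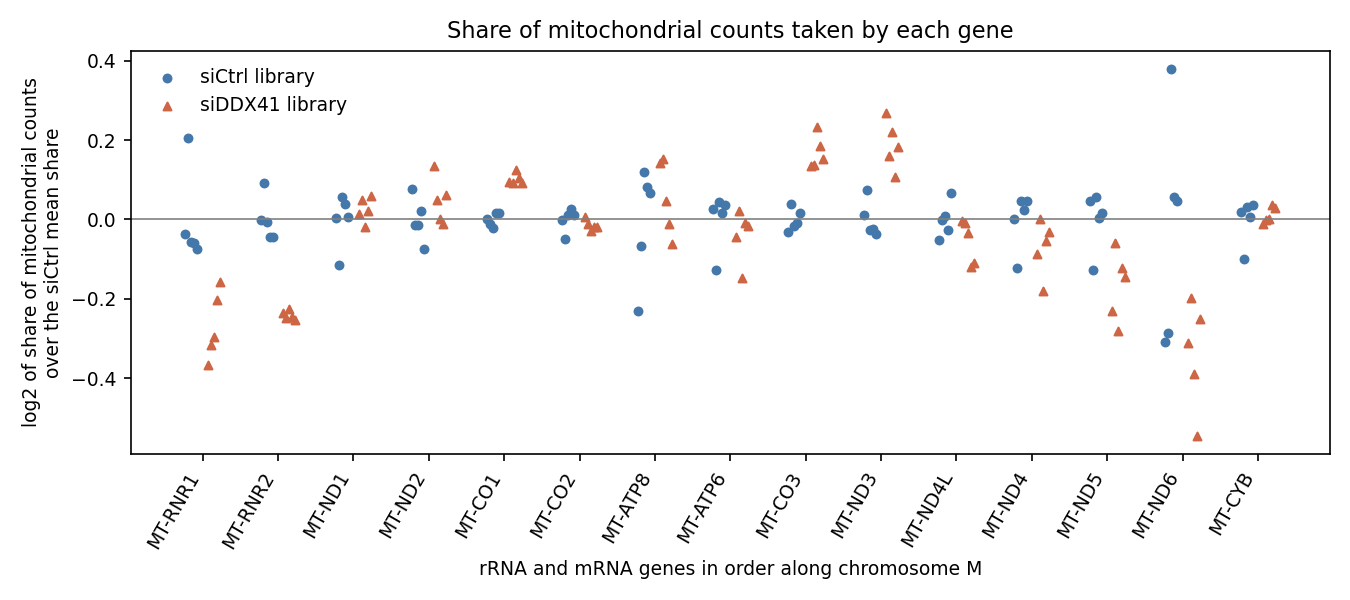
Share of mitochondrial counts taken by each rRNA and mRNA gene in each library, as log2 of the share over the mean share in siCtrl, in the order of the genes along chromosome M. Circles are siCtrl and triangles siDDX41 libraries (n = 5 each). The triangles lie above all circles for MT-CO1, MT-CO3 and MT-ND3 and below all circles for MT-RNR1 and MT-RNR2.

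Levels differed widely among the members. Per kb of gene length, MT-CO3 (2827 ± 363 CPM per kb, SD, n = 5) and MT-CO2 (2774 ± 435) were highest in siCtrl. MT-CO1 (1921 ± 280.4 CPM per kb) and MT-RNR2 (1714 ± 193) came next, followed by MT-ND3, MT-ATP6, MT-ND2, MT-ND4, MT-CYB, MT-ND4L, MT-RNR1, MT-ATP8 and MT-ND1 between 1265 and 288 CPM per kb. From MT-CO3 down to MT-ND1 the control libraries of each gene overlapped those of the next in the order. These ranges span the same 5 libraries and do not compare genes within a library. For MT-CO2 and MT-CO1, for example, the lowest values were 2091 and 1488 CPM per kb and the highest 3293 and 2266. MT-ND5 (144 ± 24.9 CPM per kb) was below MT-ND1 and MT-ND6 (15.9 ± 4.38) below MT-ND5 without overlap. These are levels in libraries of polyadenylated RNA. How much of the rRNAs and of MT-ND6, which is known to lack a poly(A) tail, was selected was not measured. The places of these genes in the order therefore need not follow their abundance in the cell. The order also depends on dividing by the whole gene length: per kb of start positions from which a read reaches the gene and no other of its strand, MT-ATP8 stood at 921 CPM in siCtrl, above MT-ND4 (776), MT-ND4L (674), MT-CYB (482) and MT-RNR1 (431). Where reads with several placements were dropped, these levels per kb would be too low: 38.4% of the read starts of MT-CO1, 31.0% of MT-ND2 and 24.6% of MT-RNR1 give an 84-base read with an identical copy on a nuclear chromosome, against 0% for MT-ATP8, MT-ND3, MT-ND4L, MT-ND4, MT-ND5 and MT-CYB. How reads with several placements were counted is not given in the sources used here.

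Across the 13 mRNAs the log2 fold change was higher for genes at a higher level, with Pearson's r of 0.821 and Spearman's rho of 0.610 against the log2 of the control level per kb. Over the 12 heavy-strand mRNAs, without MT-ND6, these were 0.607 and 0.503. Against the start of the gene on chromosome M they were -0.494 and -0.522 over 13 mRNAs and -0.296 and -0.434 over 12. Gene length (-0.136 and -0.137), GC content (0.003 and 0.077) and the share of reads with a nuclear copy (0.302 and 0.280) had the values given in brackets over the 13. Over the 12 these were -0.419 and -0.280 for length, -0.192 and -0.028 for GC content, and 0.272 and 0.317 for the nuclear copy. The 13 points share the same 10 libraries, the control counts enter both axes of the first relation, and genes are not independent replicates, so these are descriptions of 5 properties without a test.

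Nuclear DNA holds many old copies of mitochondrial genes, which can draw reads from chromosome M. By their GENCODE symbols 399 such copies of mitochondrial mRNA genes were found, of which 34 had counts. The 3 that passed the filter were MTND2P28 (chr1:629640-630683), MTCO1P12 (chr1:631074-632616) and MTATP6P1 (chr1:633696-634376), annotated as pseudogenes on chromosome 1 in hg38. These 3 are 98.4, 98.6 and 98.5% identical to MT-ND2, MT-CO1 and MT-ATP6, and chromosome 1 holds 81.7% of the nuclear placements of 84-base reads of chromosome M. MTATP6P1 ranged from 76.1 to 128 CPM in siCtrl and from 144 to 173 CPM in siDDX41. All 3 rose with their chromosome M counterparts, beside 30.3% of all tested genes. The log2 fold changes were 0.51 ± 0.12 for MTND2P28 (SE, adjusted p = 0.00344 from edgeR), 0.63 ± 0.11 for MTCO1P12 (adjusted p = 1.03e-05) and 0.49 ± 0.13 for MTATP6P1 (adjusted p = 0.00832). For MT-ND2, MT-CO1 and MT-ATP6 the values were 0.58, 0.64 and 0.49. Reads of these pairs cannot be told apart with certainty, and without siCtrl replicate 3 or 5 only 1 of the 3 copies was called. Of all tested genes 29.4% and 28.5% rose in those fits. MTRNR2L genes, which can also share reads with chromosome M, were not analysed here.

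The nuclear genes that make and maintain mitochondrial RNA changed in both directions, as did all 16143 tested genes, of which 30.3% rose and 32.1% fell. In the mtDNA transcription list 4 of 9 genes rose and 1 fell, with a median log2 fold change of 0.16. The number that rose was 2 without siDDX41 replicate 4, 5 without siCtrl replicate 5 and 6 with DESeq2 size factors. Of all tested genes 29.2, 28.5 and 30.8% rose in these 3 fits. POLRMT, the polymerase, stood at 28.3, 33.8, 24.7, 27.8 and 30.2 CPM in siCtrl replicates 1 to 5 and at 43.7, 43.5, 45.1, 42.2 and 43.7 CPM in siDDX41 replicates 1 to 5. It rose with no overlap between the groups (log2 fold change 0.59 ± 0.06 SE, adjusted p = 3.05e-09 from edgeR), and MTERF2, a member of the termination factor family, fell (log2 fold change -0.59 ± 0.08, adjusted p = 4.25e-07 from edgeR). TFB2M, which opens the promoter, rose slightly (log2 fold change 0.17, adjusted p = 0.00311 from edgeR). TFAM, which packages mtDNA and starts transcription, had a log2 fold change of 0.08 (adjusted p = 0.0109 from edgeR) and the elongation factor TEFM of -0.02 (adjusted p = 0.693 from edgeR), neither past the threshold.

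In the list of RNA stability, polyadenylation and decay 8 of 8 genes rose, beside 30.3% of all tested genes, with a median log2 fold change of 0.37. LRPPRC and SLIRP, which form a complex that holds heavy-strand mRNAs, had log2 fold changes of 0.30 ± 0.03 (SE, adjusted p = 7.64e-12 from edgeR) and 0.41 ± 0.04 (adjusted p = 5.14e-09). The poly(A) polymerase MTPAP rose by 0.18 (adjusted p = 1.85e-05 from edgeR). PNPT1 and SUPV3L1, the nuclease and helicase that degrade mitochondrial RNA, rose too, by 0.47 (adjusted p = 7.62e-14 from edgeR) and 0.19 (adjusted p = 8.16e-05) on the log2 scale. Genes that stabilize RNA and genes that remove it thus both stood higher.

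Among 14 genes of RNA cleavage and processing 7 rose and 3 fell, with a median of 0.11, beside 30.3% and 32.1% of all tested genes. TRMT10C of RNase P rose (log2 fold change 0.26 ± 0.04, SE, adjusted p = 3.75e-07 from edgeR), and ELAC2, which cuts the other end of a tRNA, fell (log2 fold change -0.24 ± 0.04, adjusted p = 4.86e-07 from edgeR). GRSF1, an RNA-binding protein of mitochondrial RNA granules, rose by 0.08 (adjusted p = 0.00764 from edgeR), and FASTKD2 and FASTKD5, of a family that acts on mitochondrial RNA, by 0.49 (adjusted p = 5.44e-14) and 0.32 (adjusted p = 1.25e-08). Of 14 genes of mtDNA replication and maintenance 7 rose and 2 fell, with a median of 0.09. The helicase TWNK had a log2 fold change of 0.49 (adjusted p = 3.21e-12 from edgeR), the single-strand binding protein SSBP1 of 0.30 (adjusted p = 9.20e-06) and the polymerase POLG of 0.12 (adjusted p = 0.000739), whereas TK2, the thymidine kinase of mitochondria, fell (log2 fold change -0.84, adjusted p = 1.27e-15 from edgeR).

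The remaining 4 lists also stand beside the 30.3% of all tested genes that rose and the 32.1% that fell. Of 24 tested genes of rRNA and tRNA modification 9 rose and 4 fell (median 0.02), with the lowest adjusted p-values for YRDC, of threonylcarbamoyl tRNA modification (log2 fold change 0.74, adjusted p = 4.09e-13 from edgeR), and TFB1M, which methylates the rRNA of the small subunit (log2 fold change 0.69, adjusted p = 2.67e-12). Of 14 translation factors 7 rose and 2 fell (median 0.14), and the lowest adjusted p-values were those of GFM2 (0.42, adjusted p = 3.45e-13 from edgeR) and GUF1 (0.43, adjusted p = 5.68e-13). Of 8 regulators of mitochondrial biogenesis 2 rose and 4 fell (median -0.07). PPARGC1B, a coactivator of respiratory genes, rose by 1.31 (adjusted p = 2.80e-16 from edgeR) and the nuclear receptor ESRRA by 0.56 (adjusted p = 4.41e-11) on the log2 scale. The 4 that fell were PPARGC1A, the paralogue of PPARGC1B (-1.08, adjusted p = 1.50e-07 from edgeR), NRF1 (-0.26, adjusted p = 6.11e-06), GABPB1 (-0.20, adjusted p = 1.14e-05) and PPRC1 (-0.13, adjusted p = 0.000421). Of 25 tested genes of respiratory chain assembly and membrane insertion 5 rose and 8 fell (median -0.03), among them TIMMDC1, a complex I assembly factor, which rose (log2 fold change 0.83, adjusted p = 2.07e-19 from edgeR), and COX15, of heme A synthesis for complex IV, which fell (-0.72, adjusted p = 4.04e-16). At an adjusted p under 0.05 of edgeR 8 genes of the last list rose and 11 fell, while 5626 of all 16143 tested genes rose and 5794 fell.

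**Figure D5:**
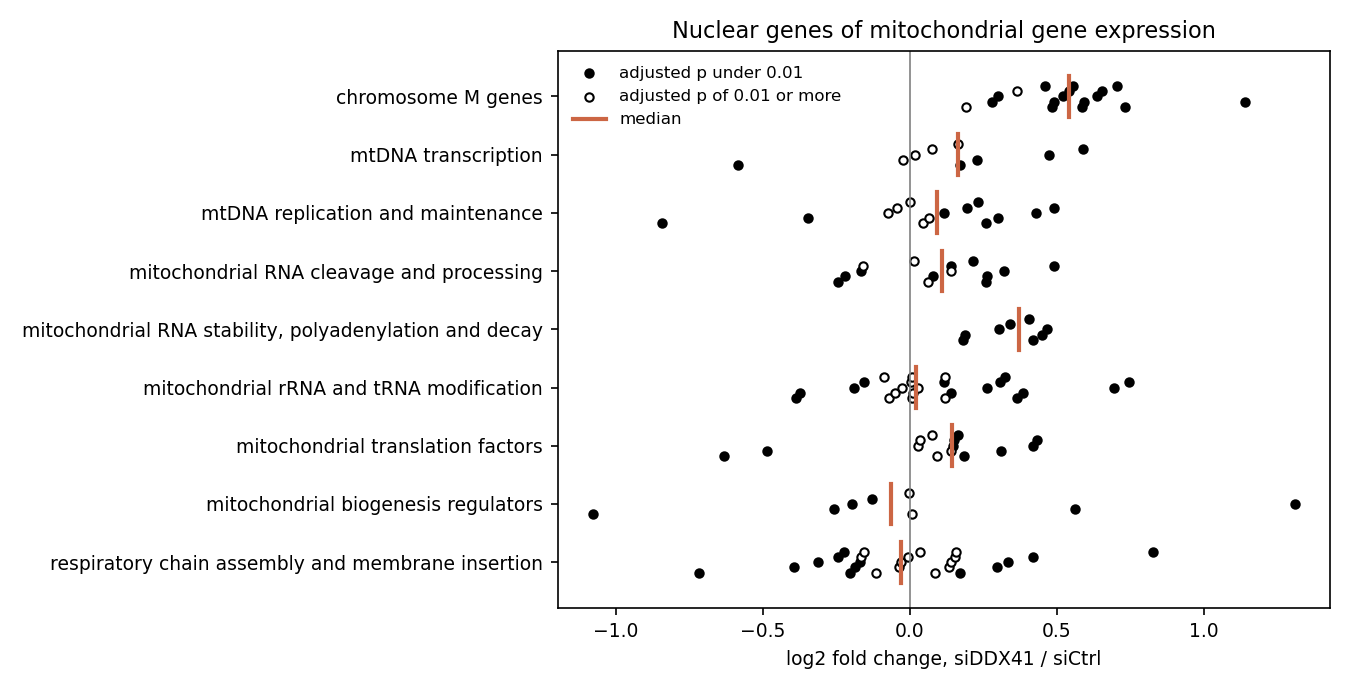
Log2 fold change of siDDX41 against siCtrl for the 17 tested genes of chromosome M and for the tested genes of 8 lists of nuclear genes, 1 point per gene. Filled points passed an adjusted p under 0.01 in edgeR and open points did not, and the vertical bar is the median of the list. The median of the chromosome M genes is 0.54 and that of the stability, polyadenylation and decay list 0.37.

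The nuclear subunits of the same complexes, in lists written after the data were seen, had lower median log2 fold changes than the mitochondrial subunits, although single nuclear subunits of complex I had larger values than MT-ND5 and MT-ND6. For complex I the median log2 fold change was 0.48 over 7 mitochondrial and 0.18 over 33 tested nuclear subunits (20 rose and 2 fell), and for complex IV it was 0.64 over 3 and 0.26 over 11 (10 rose and none fell). For complex V it was 0.54 over 2 and 0.18 over 17 (12 rose and none fell), and for complex III 0.54 for MT-CYB and 0.14 over 9 (5 rose and 2 fell). Of all tested genes 30.3% rose and 32.1% fell. The difference between the 2 origins was not tested.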

How the data were processed

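RNA of 5 control and 5 DDX41 knockdown libraries of U2OS cells was sequenced. The authors mapped reads to hg38 with STAR 2.7 and counted them per gene of GENCODE 25 with featureCounts 1.6, and the deposited values are these counts, with no column left unused. Strand setting and treatment of reads with several placements are not stated. Genes were joined by ID to GENCODE 44 (15936 tested genes, 98.7%). In R 4.3.3, edgeR 4.0.16 kept genes by filterByExpr, scaled libraries by TMM factors, and tested siDDX41 against siCtrl over all genes kept by a robust quasi-likelihood fit, and genes were called at a Benjamini-Hochberg adjusted p under 0.01. Alternatives changed the scaling, the filter, the threshold, the test (DESeq2 1.42.0), a block of replicate numbers and the libraries used. The fit was tested on simulated data. Shares, ratios and read starts on chromosome M were computed in Python 3.11.15 with pandas 2.3.3. All chromosome M genes are reported, with 15 nuclear genes chosen by role and the 2 genes of each nuclear list with the lowest adjusted p, to which the tested line markers and the biogenesis genes that fell were added after seeing the data. Members and lists were chosen with earlier results of these data known. MTRNR2L genes were not analysed here.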

Additional observations from a re-analysis of the deposited data

Results flagged for a closer look

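In 26 of 160 groups of 5 values a library lay far from the others, by a gap to the nearest value over the whole range of the group, above Dixon's 95% critical value. Chance flags about 1 in 20 groups, and the values are not independent, since most share the same mitochondrial counts. The library siDDX41 replicate 1 was the highest of its group in MT-ND2 (0.736), MT-CO2 (0.807) and MT-CYB (0.921), in the nuclear copies MTND2P28 (0.792) and MTATP6P1 (0.810), and in the shares of all counts taken by all mitochondrial genes (0.751), mRNAs (0.738) and rRNAs (0.720) and of protein-coding counts taken by the mRNAs (0.734).

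The library siCtrl replicate 2 was the lowest control in MT-TT (0.933), in the ratios of mRNA to rRNA (0.721) and MT-RNR2 to MT-RNR1 (0.783), and in the shares of mitochondrial counts of the mRNAs (0.742), complex III (0.770) and its gene MT-CYB (0.770), complex V (0.713), MT-ATP6 (0.828) and MT-ND4 (0.713). It was the highest control in the shares of rRNA (0.742) and MT-RNR1 (0.874). Among nuclear genes it was the highest control in PPARGC1B (0.889) and TIMMDC1 (0.823). Other libraries stood apart in TEFM (0.813, siDDX41 replicate 3 highest), POLG (0.730, siCtrl replicate 1 highest), MTERF2 (0.851, siDDX41 replicate 2 highest) and COX15 (0.719, siCtrl replicate 3 lowest).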

How the results depend on the processing

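The number of members that rose was 10 to 16 over the other settings and 11 to 16 with 1 library left out, against 15, and none fell in any. Of all tested genes, 15.7% (no filter on low counts) to 34.9% (adjusted p under 0.05) rose over the other settings. With 1 library left out 28.5 to 29.6% rose, against 30.3%. DDX41 had a log2 fold change from -2.04 to -1.96 with 1 library left out, and the difference in mitochondrial share of all counts was 0.558 to 0.695 points, against 0.636. The difference in the light-strand share of mRNA counts was -0.0208 to -0.0119 points, against -0.0173. Of 136 gene values under other settings 125 kept their direction and side of the threshold, 9 lost the call and 2 gained it, and of 170 with 1 library left out 142, 27 and 1. Of 32 shares under another denominator or scaling 11 moved by more than the spread between replicates, all of them with the mRNA counts as the denominator. The other scaling took the mitochondrial counts as library size. It restates the share of mitochondrial counts and so could not move it. The 32 therefore understate how often a change of denominator moved a share. Nothing reversed among the called genes. Same-numbered libraries of the groups did not deviate together (correlations from -0.0490 to 0.0414). Of the control libraries only siCtrl replicate 4 correlated best with its own number, and none of the knockdown libraries did. With the replicate block 10 members passed the threshold, without MT-ND1, MT-ATP8, MT-ATP6, MT-ND4L and MT-ND4 (adjusted p 0.0139, 0.0333, 0.0247, 0.0165 and 0.0328 from edgeR). Of all tested genes 29.7% rose with that block. The effect of depth was not tested. The fewest counts were those of tRNAs, 10 of which had 3 to 72 counts over all libraries and were not tested.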
